A study of Arabidopsis thaliana with 16 samples.

Results

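Cysteine-rich receptor-like kinases (CRKs) were read from the annotation as the protein-coding genes of *Arabidopsis thaliana* whose product name contains cysteine-rich RLK or cysteine-rich receptor-like, which gave 41 of 27444 genes. H2A.Z was mapped in shoots of Columbia-0 seedlings 13 days after germination by ChIP-seq with antibodies against the H2A.Z proteins HTA11 and HTA9, and H3 was mapped from the same chromatin. The groups were *mbd9-3*, *arp6-1*, the double mutant *arp6-1 mbd9-3*, and wild type, with 2 replicates each of each antibody. Both mutations are T-DNA insertions, and whole shoots hold many cell types, so that fewer cells with H2A.Z at a gene and less H2A.Z per cell cannot be told apart. The values are positions of summits, the highest points of ChIP peaks, with a score that is the −log10 of the q value of the summit. There were 16 lists. In 8 of them H2A.Z was set against H3 of the same genotype and replicate, and in the other 8 H2A.Z of one genotype was set against H2A.Z of another.

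H2A.Z is a variant of histone H2A that the chromatin remodelling complex SWR1 exchanges into nucleosomes. ARP6 is a subunit of SWR1, and MBD9 is a methyl-CpG-binding domain protein that binds to SWR1. In *Arabidopsis* H2A.Z lies mainly over the first nucleosomes after the transcription start site (TSS), and in genes that respond to stress and development it often extends into the gene body. CRKs are plasma membrane receptors with an extracellular part of repeated DUF26 domains, each with a conserved cysteine pattern, a single transmembrane helix and an intracellular serine/threonine kinase. Several of them act in immunity, in responses to reactive oxygen species and in cell death, and many members of the family lie in tandem arrays.

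Every one of the 41 proteins translated from the annotation held at least 1 cysteine motif in the DUF26 spacing, in which 3 cysteines are separated by 8 and 2 residues, and 37 held 2. The median protein had 660 residues, 29 genes had 7 coding exons, and the median gene was 2936 bp long, with a range of 1336 to 5023 bp. The shortest protein, of AT4G20645, had 270 residues.

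Of the 41 genes, 37 lay on chromosome 4. With neighbours at most 10 kb apart, 27 genes fell into 3 clusters, 4 into 2 pairs, and 10 were single. The largest cluster, *CRK5* to *CRK24*, held 19 members over 74.2 kb (chromosome 4, 12117491 to 12191704, TAIR10.1). *CRK30* to *CRK34* held 5 members over 26.3 kb, and *CRK36* to *CRK38* held 3 members over 13.2 kb. The annotation calls one gene of the largest cluster *EMB1290*, whose product is cysteine-rich receptor-like protein kinase 17. Members that overlap each other, namely *CRK28* and *CRK29*, *CRK10* and *CRK11*, and *CRK16* and *EMB1290*, can share a summit.

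Tandem copies are alike in sequence, and the authors kept only reads that map to 1 place. *CRK19* and *CRK20* were the most alike pair, with 84.7% identical residues. In 15 members every 50-base window was found 1 time in the nuclear genome, compared with 82.6% of other genes. AT4G20645 had 0% unique windows, so that no read of that length maps to it uniquely. *CRK6* (71.8%), *CRK8* (79.9%), *CRK13* (87.5%) and *CRK22* (88.2%) were also below 90%.

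The sequences below are the 201 bp around the centres of common wild-type regions, that is, regions with a summit in both wild-type replicates. They are printed on the strand of the gene from TAIR10.1, and capitals mark the stretch between the summits of both replicates. All 6 lie in coding exon 1. The first 3 come from the members with the highest wild-type scores, *CRK3* (chr1:26591131-26591331, minus strand), *CRK19* (chr4:12171339-12171539, plus strand) and *CRK41* (chr4:418667-418867, plus strand).
CRK3: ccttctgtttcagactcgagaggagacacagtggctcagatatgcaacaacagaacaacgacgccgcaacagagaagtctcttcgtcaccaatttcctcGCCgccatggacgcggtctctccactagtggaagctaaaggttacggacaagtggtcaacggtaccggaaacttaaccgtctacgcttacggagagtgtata
CRK19: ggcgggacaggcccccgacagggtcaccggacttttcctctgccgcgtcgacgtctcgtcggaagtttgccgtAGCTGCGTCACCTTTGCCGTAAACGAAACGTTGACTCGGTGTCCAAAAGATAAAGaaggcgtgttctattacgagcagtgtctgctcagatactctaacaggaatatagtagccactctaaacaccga
CRK41: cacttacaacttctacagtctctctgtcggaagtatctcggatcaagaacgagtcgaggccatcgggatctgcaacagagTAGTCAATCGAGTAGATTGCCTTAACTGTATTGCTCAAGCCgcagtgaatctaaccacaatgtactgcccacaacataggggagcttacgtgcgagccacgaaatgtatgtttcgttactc
The other 3 were chosen after their values were seen. *CRK20* (chr4:12174982-12175182, plus strand) is the closest copy of *CRK19*, *CRK23* (chr4:12185883-12186083, plus strand) is the member with a common summit in every genotype, and *CRK36* (chr4:2234320-2234520, minus strand) is one of the members that lost H2A.Z in *mbd9-3*.
CRK20: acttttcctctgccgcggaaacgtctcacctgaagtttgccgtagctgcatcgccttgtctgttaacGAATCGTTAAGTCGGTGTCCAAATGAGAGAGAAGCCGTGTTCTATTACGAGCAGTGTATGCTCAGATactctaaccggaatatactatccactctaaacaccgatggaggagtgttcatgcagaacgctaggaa
CRK23: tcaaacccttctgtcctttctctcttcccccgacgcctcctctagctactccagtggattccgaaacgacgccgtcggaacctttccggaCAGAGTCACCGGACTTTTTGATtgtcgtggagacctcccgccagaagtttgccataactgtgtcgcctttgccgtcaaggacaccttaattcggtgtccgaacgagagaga
CRK36: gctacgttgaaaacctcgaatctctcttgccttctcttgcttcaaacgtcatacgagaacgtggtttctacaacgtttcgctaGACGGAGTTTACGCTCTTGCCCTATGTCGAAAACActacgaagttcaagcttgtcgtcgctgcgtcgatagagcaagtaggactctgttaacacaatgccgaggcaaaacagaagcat
In the windows of *CRK3*, *CRK19*, *CRK41* and *CRK23* the summits of both replicates were 3, 55, 41 and 22 bases apart, counting both ends. The windows of *CRK19* and *CRK20* aligned over 171 bases, of which 148 (86.5%) were identical, and both genes kept a summit of their own in wild type. The centres of the 6 windows lay between codons 50 and 115, ahead of the kinase part of the protein.

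To find which CRK genes carry H2A.Z and which lose it, a gene was counted where a region common to both replicates overlapped it between TSS and the end of the transcript (TES). A common summit over H3 was found in 29 of 41 CRK genes in *mbd9-3* (70.7%, 95% interval 54.5 to 83.9), 2 in *arp6-1* (4.88%, 0.596 to 16.5), 1 in the double mutant (2.44%, 0.0617 to 12.9) and 33 in wild type (80.5%, 65.1 to 91.2). The shares of the 27403 other protein-coding genes were 29.5% in *mbd9-3*, 8.66% in *arp6-1*, 1.26% in the double mutant and 50.8% in wild type. The intervals are exact Clopper-Pearson intervals and cover counting error only, and neighbouring copies are not independent. The share of CRK genes was above that of other genes in *mbd9-3* and in wild type, and in *arp6-1* and the double mutant the share of other genes lay within the interval of the CRK genes. With scores of at least 5 the shares in *mbd9-3* were 36.6% of CRK genes and 19.1% of other genes, and with scores of at least 10 they were 4.88% and 8.05%, so that the direction turned. Among genes of 2000 to 4000 bp the shares were 73.0% of 37 CRK genes in *mbd9-3* and 83.8% in wild type, and 30.7% and 52.5% of 11159 other genes.

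A common region of loss, with less H2A.Z in the mutant than in wild type, was found in 2 CRK genes in *mbd9-3* (4.88%, 0.596 to 16.5), 22 in *arp6-1* (53.7%, 37.4 to 69.3) and 22 in the double mutant (53.7%, 37.4 to 69.3). No CRK gene had a common region of further loss in the double mutant compared with *arp6-1*, for which the upper bound of the interval is 8.60%. The shares of other genes were 9.12% in *mbd9-3*, 42.8% in *arp6-1*, 53.7% in the double mutant and 2.86% for the further loss. All 4 lay within the intervals of the CRK genes. With scores of at least 5, losses were called in 17.1% of CRK genes and 22.8% of other genes for *arp6-1*, and in 26.8% and 38.1% for the double mutant. The 3 comparisons with wild type share its libraries.

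**Figure D1:**
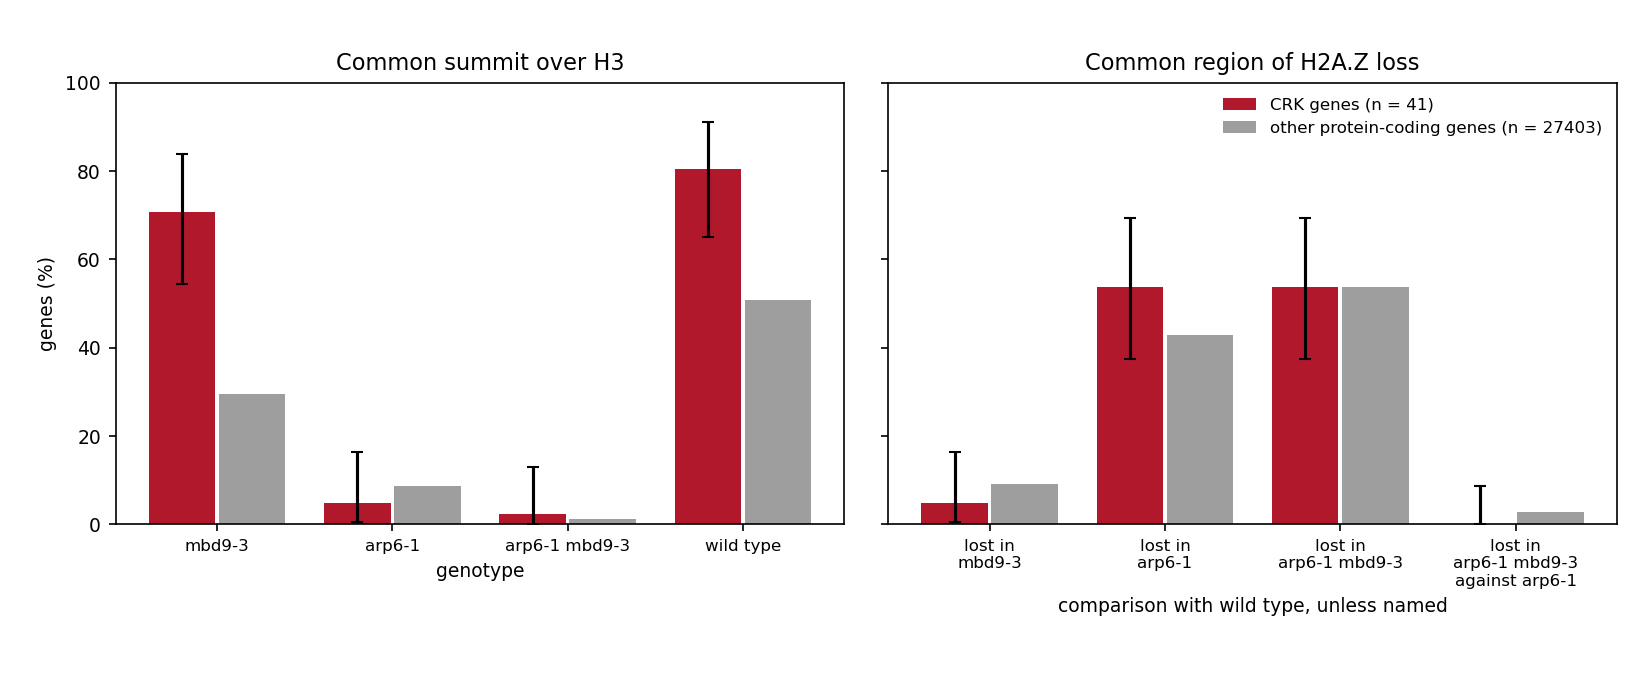
Percentage of CRK genes (red, n = 41) and of other protein-coding genes (grey, n = 27403) with a common H2A.Z summit over H3 in each genotype (left) and with a common region of H2A.Z loss (right). Error bars are exact 95% intervals for the CRK genes; in *mbd9-3* 70.7% of CRK genes and 29.5% of other genes had a common summit.

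Counted library by library, *mbd9-3* had 30 and 30 CRK genes with a summit over H3, *arp6-1* had 5 and 12, the double mutant had 5 and 3, and wild type had 35 and 34. Both wild-type libraries were above every mutant library. The mutant libraries averaged 14.2 genes and the wild-type libraries 34.5, a difference of -20.3 (two-sided exact permutation test of 6 against 2 libraries, p = 0.107, adjusted p = 0.214 over 2 tests). The smallest p that this design can give is 0.0357, and a single mutant against wild type cannot go below 0.333. The difference therefore did not pass the threshold, and it did not after adjustment with scores of at least 5 (-17.5, exact permutation p = 0.0357, adjusted p = 0.0714). In the counts above the *mbd9-3* libraries stood nearer to wild type than to the other mutants.

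The libraries differed in how many summits they hold, with 15024 and 17839 for *mbd9-3*, 3827 and 7506 for *arp6-1*, 1243 and 1265 for the double mutant, and 29980 and 26536 for wild type. Per 1000 summits of the list, CRK genes held 4.13 and 3.20 for *mbd9-3*, 2.09 and 2.93 for *arp6-1*, 5.63 and 2.37 for the double mutant, and 2.43 and 2.11 for wild type. The values of *mbd9-3* did not overlap those of wild type, whereas those of *arp6-1* did. With 2 against 2 libraries an exact permutation test cannot go below p = 0.333, and this separation was not tested. Over all mutants the means were 3.39 in the mutant and 2.27 in the wild-type libraries (exact permutation test, p = 0.357, adjusted p = 0.357). With scores of at least 10 the difference of these means was reversed, at -1.11. The counts behind the double-mutant values were 7 and 3 summits. The number of reads in each library is unknown, and its part in these counts was not tested.

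**Figure D2:**
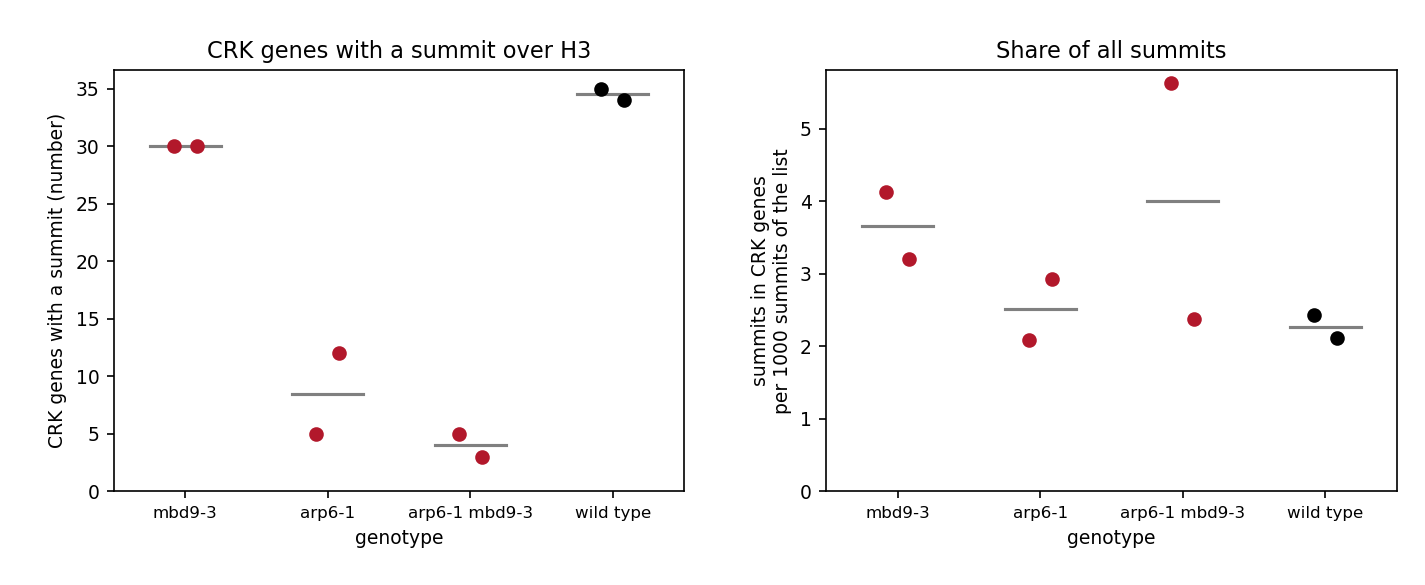
CRK genes with a summit over H3 (left) and summits in CRK genes per 1000 summits of the list (right) by genotype. Each point is 1 replicate and each line the mean of 2; *mbd9-3* had 30 and 30 genes with a summit and wild type 35 and 34.

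The difference in share between CRK genes and other genes was wider in *mbd9-3* than in the other 3 genotypes. Of the 33 CRK genes that held a common region in wild type, 27 (81.8%, 64.5 to 93) also had one in *mbd9-3*, compared with 55.7% of 13925 such other genes. In the same genes H2A.Z was lost in *mbd9-3* in 6.06% of CRK genes (0.743 to 20.2) and 14.4% of other genes. A common region in *mbd9-3* need not lie where that of wild type lies. In *CRK5*, *CRK11*, *CRK21*, *CRK31* and *CRK32* no common *mbd9-3* region centred within 200 bp of a wild-type one. Counted as regions, CRK genes held 50 common regions in *mbd9-3* and 47 in wild type, a ratio of 1.06. Other genes held 11181 in *mbd9-3* and 20140 in wild type, a ratio of 0.555. A summit can belong to several common regions, so that regions are not always separate sites. Of 35 CRK genes with a common region in either genotype, 11 had more regions in *mbd9-3* than in wild type (31.4%), 14 had equal numbers and 10 had fewer (28.6%). Of 14257 such other genes, 8.59% had more and 57.1% had fewer. With scores of at least 5 the ratios were 0.875 and 0.566, and with scores of at least 10, which left 2 CRK genes with a common summit in *mbd9-3* and 5 in wild type, they were 0.400 in CRK genes and 0.890 in other genes, the other way round.

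*CRK14* had 5 common regions in *mbd9-3* and 3 in wild type, *CRK4* and *CRK27* each had 4 and 2, and *CRK7* had 3 and 1. In *CRK4* each *mbd9-3* list held only 3 summits, so that its 4 regions are not 4 separate sites. The 3 families most like the CRKs, chosen by annotated product name with no check of their domains, had lower ratios. The ratio of regions in *mbd9-3* to wild type was 0.609 for 183 leucine-rich repeat kinases, 0.612 for 81 lectin kinases and 0.463 for 54 proteins with DUF26 domains but no kinase.

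The best common wild-type region had a median score of 5.26 in CRK genes and 6.12 in other genes, and among other genes a common summit in *mbd9-3* was less frequent at low scores. In the lowest quintile of wild-type score, 7 of 10 CRK genes (70.0%) and 25.6% of other genes had a common summit in *mbd9-3*. In the second quintile these shares were 71.4% and 36.1%, and in the third 85.7% and 51.7%. In the upper 2 quintiles all 9 CRK genes had one, compared with 73.4% and 91.2% of other genes. Without the 5 members under 90% unique the share in *mbd9-3* was 27 of 36 (75.0%), compared with 30.5% of other genes that were at least 90% unique.

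**Figure D3:**
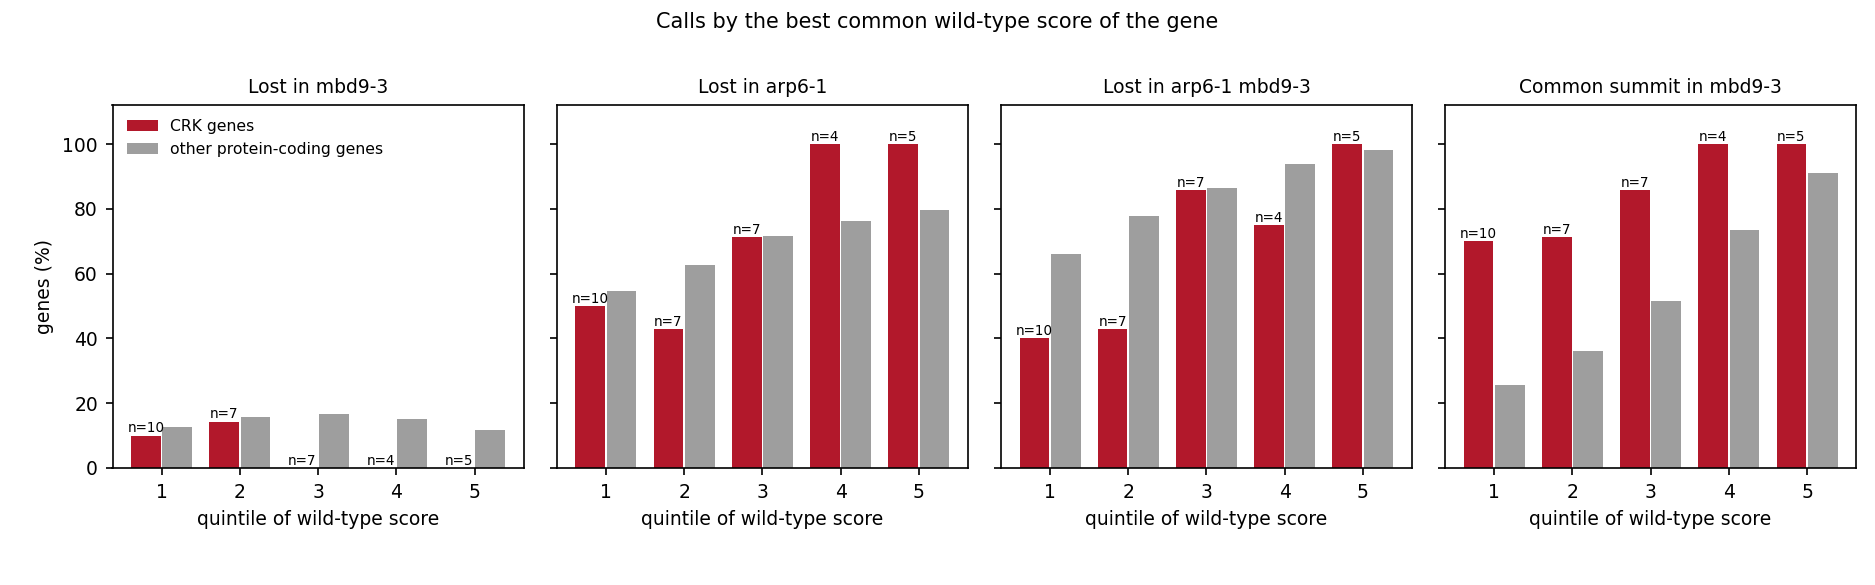
Percentage of genes called lost in each mutant, and with a common summit in *mbd9-3*, by quintile of the best common wild-type score (1, lowest; 5, highest), for CRK genes (red, with their number) and other protein-coding genes (grey). In the lowest quintile 70.0% of 10 CRK genes and 25.6% of other genes had a common summit in *mbd9-3*.

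In *arp6-1* and the double mutant few CRK genes had a common summit over H3. Of the 33 CRK genes with a common wild-type summit, 21 were lost with no common summit left in *arp6-1* (63.6%) and 20 in the double mutant (60.6%), compared with 60% and 82.7% of other genes. A further 10 in *arp6-1* and 12 in the double mutant had neither a common summit left nor a common region of loss. The share of this last pattern in the double mutant was 36.4% of CRK genes and 14.9% of other genes. It was made up of *CRK4*, *CRK40*, *CRK30*, *CRK34*, *CRK5*, *CRK6*, *CRK10*, *CRK11*, *CRK13*, *CRK14*, *CRK24* and *CRK26*. Of these, *CRK4*, *CRK40*, *CRK6*, *CRK10*, *CRK13* and *CRK26* had a loss summit in 1 of 2 lists of the double mutant. Such single-list losses were not counted in other genes. In the lowest and second quintiles of wild-type score 40.0% and 42.9% of CRK genes were lost in the double mutant, compared with 66.2% and 77.8% of other genes. In the highest quintile all 5 CRK genes were lost in both *arp6-1* and the double mutant, compared with 79.6% and 98.3% of other genes.

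Of the genes called lost, 19 were called in both *arp6-1* and the double mutant. *CRK6*, *CRK26* and *CRK40* were called in *arp6-1* only, and *CRK27*, *CRK29* and AT4G28670 in the double mutant only. *CRK6* had a loss summit in 1 of 2 lists of the double mutant, with a score of 4.57, and *CRK40* in 1 of 2, with a score of 2.92. A gene called in one mutant and not in the other is thus not shown to differ between them, and no such difference was tested.

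**Figure D4:**
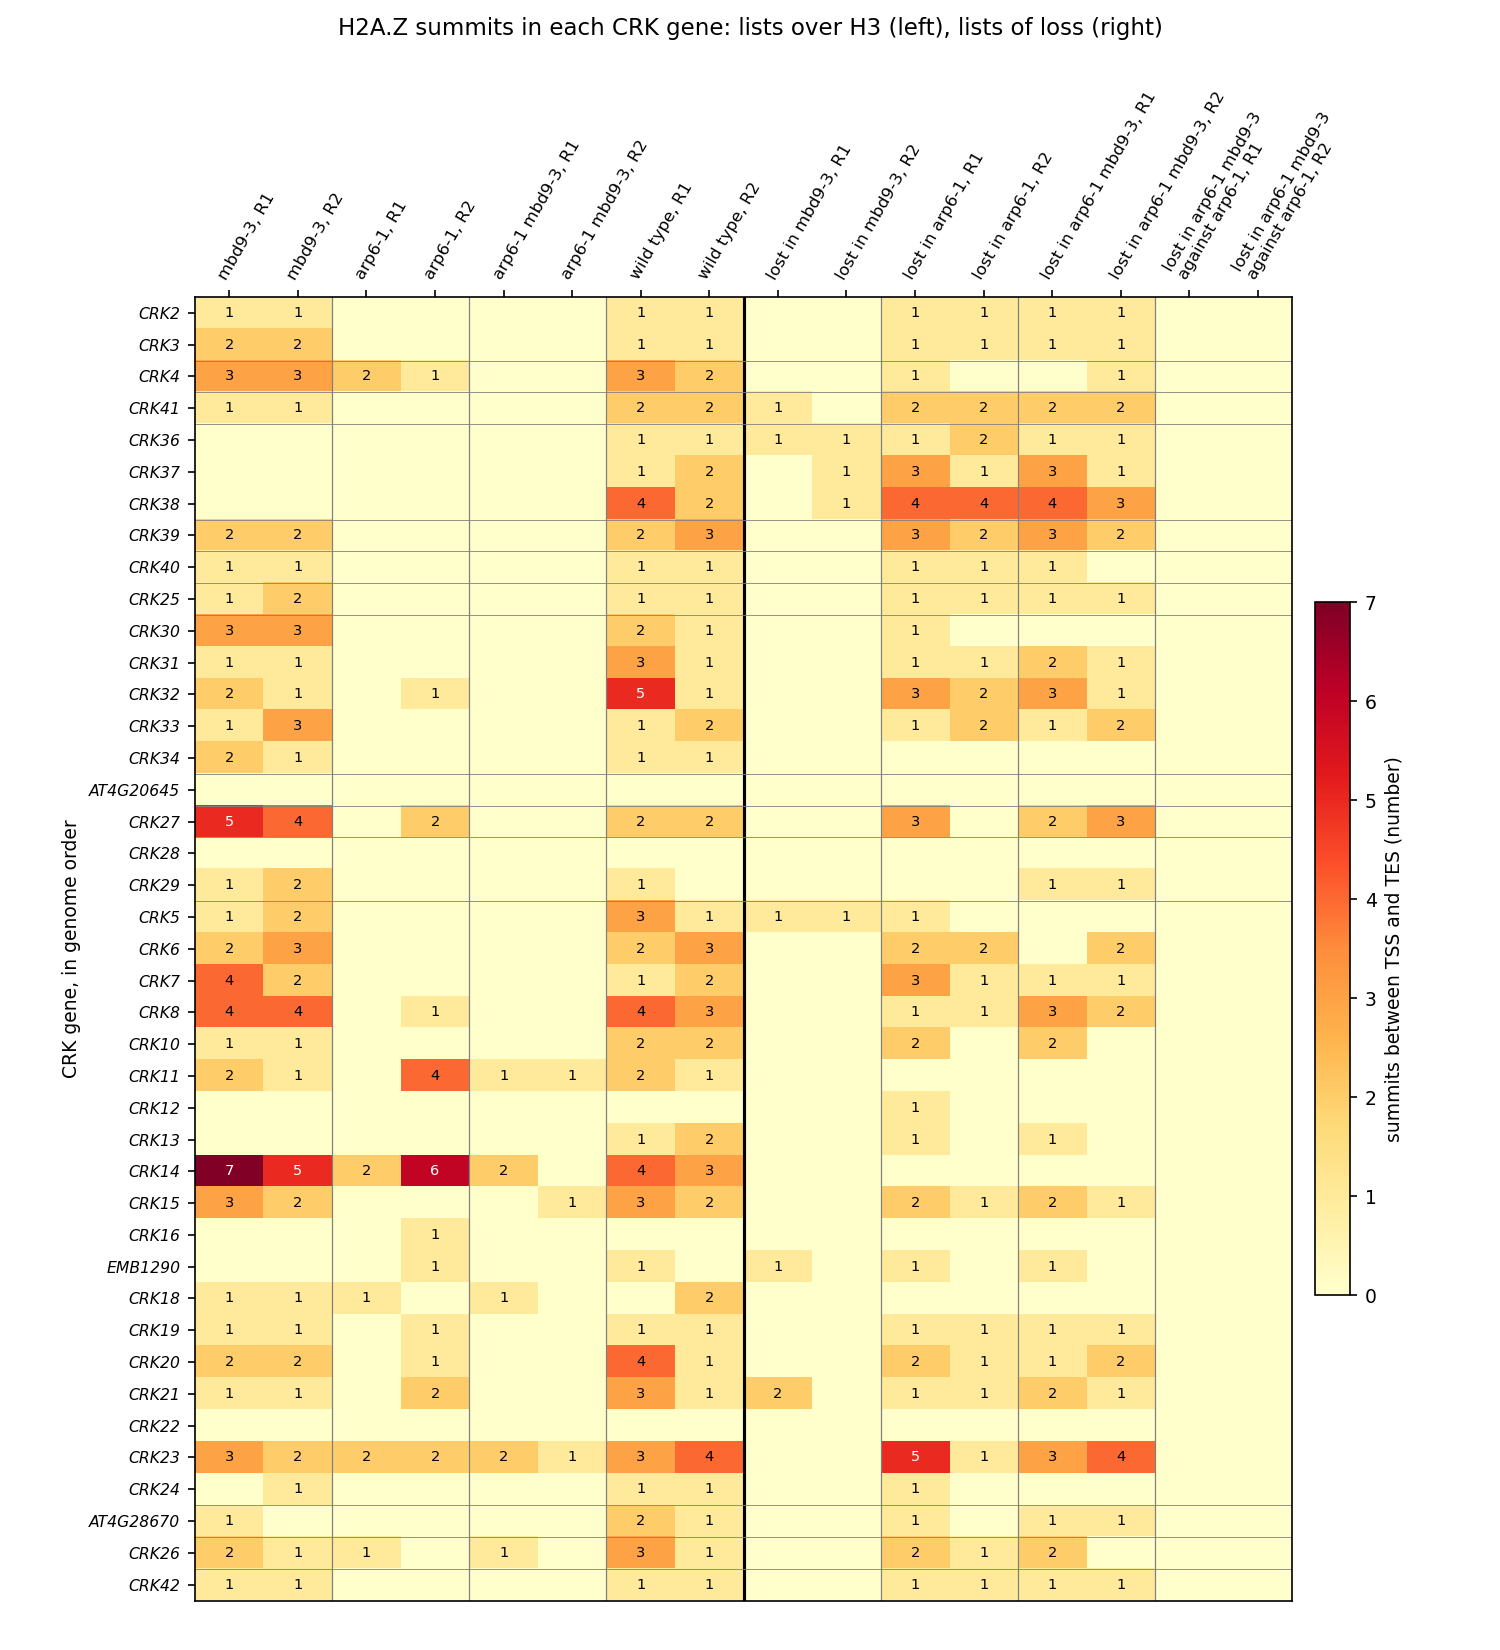
Number of summits between TSS and TES of each CRK gene (rows, in genome order; horizontal lines separate clusters, pairs and single genes) in each of the 16 lists, with the lists of H2A.Z over H3 left of the thick line and the lists of loss right of it; R1 and R2 are the replicates and empty cells are 0. The columns of *mbd9-3* resemble those of wild type in most rows, with 30 genes with a summit in each *mbd9-3* list and 35 and 34 in the wild-type lists.

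*CRK3* had the highest wild-type score of the family. Its summits had scores of 5.73 and 7.75 in *mbd9-3* and 13.7 and 11.8 in wild type, and none was listed in *arp6-1* or the double mutant. Its loss was scored 17.4 and 8.72 in *arp6-1* and 12 and 14.7 in the double mutant, and no loss was listed in *mbd9-3*. It forms a pair on chromosome 1 with *CRK2*, which encodes a kinase known to act on the NADPH oxidase *RBOHD*. The neighbour *CRK2* had the same pattern, with 1 summit in each list of *mbd9-3* and of wild type, none in *arp6-1* or the double mutant, and a loss called in *arp6-1* and the double mutant.

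*CRK19* and *CRK20*, whose induced expression is known to cause cell death in leaves, lie next to each other. *CRK19* had 1 and 1 summits in *mbd9-3* and 1 and 1 in wild type, and *CRK20* had 2 and 2 in *mbd9-3* and 4 and 1 in wild type. For *CRK19* the scores were 8.56 and 17.8 in *mbd9-3* and 11 and 10.8 in wild type. In *arp6-1* only the second list held a summit, scored 3.54 in *CRK19* and 3.80 in *CRK20*, and the double mutant held none in either gene. Loss of *CRK19* was scored 5.25 and 6.26 in *arp6-1* and 9.41 and 8.40 in the double mutant.

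*CRK41* was the only one of the 6 members with the highest wild-type scores that had a loss summit in an *mbd9-3* list, scored 3.59, and this was in 1 of 2 lists. Over H3 its best scores were 4.66 and 6.85 in *mbd9-3* and 11.6 and 10.4 in wild type. It had 1 common region in *mbd9-3* and 2 in wild type, both in coding exon 1, at 440 and 706 bp from the TSS. Loss was scored 7.51 and 10 in *arp6-1* and 8.29 and 8.86 in the double mutant.

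*CRK39*, single and close to the cluster *CRK36* to *CRK38*, had 3 common regions in wild type. They lay at 317, 1593 and 1750 bp from the TSS in coding exons 1, 4 and 5, and those at 1593 and 1750 bp shared a summit of the first replicate. For *CRK39* no summit was listed in *arp6-1* or the double mutant. Its best scores were 7.24 and 6.76 in *mbd9-3* and 13.1 and 10.2 in wild type. Loss was scored 14.4 and 7.12 in *arp6-1* and 9.69 and 12 in the double mutant. *CRK15* had best scores of 9.83 and 15.3 in *mbd9-3* and 15.6 and 9.00 in wild type, and a single summit scored 2.12 in 1 of 2 lists of the double mutant. Both genes were called lost in *arp6-1* and in the double mutant.

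*CRK8* also had 3 common wild-type regions, and all lay deep in the gene, at 1545, 2285 and 2664 bp from the TSS. It encodes the longest protein of the family, with 1043 residues, and 79.9% of its windows were unique. The cysteine motifs of this annotated protein start at codons 682 and 797, and its regions centred at codons 516, 702 and 829. In *CRK6*, its closest member, the motifs start at codons 86 and 202. Best scores were 17.5 and 13.6 in *mbd9-3*, and 10.2 and 11.3 in wild type. One list of *arp6-1* held a summit scored 5.75, and the double mutant held none. Loss was scored 12.2 and 7.36 in *arp6-1* and 5.96 and 6.24 in the double mutant.

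Other members among the strongest losses had a summit in every list of *mbd9-3* and of wild type. *CRK25* had best scores of 9.92 and 16.4 in *mbd9-3* and 9.80 and 7.63 in wild type, and its loss in *arp6-1* was scored 7.86 and 11.9. *CRK32* had 10.9 and 8.39 in *mbd9-3* and 9.54 and 5.47 in wild type, and its loss in *arp6-1* was scored 9.17 and 5.99. For *CRK42*, the only member on chromosome 5, the best scores were 14.9 and 12.6 in *mbd9-3* and 14.1 and 6.40 in wild type, and its loss was scored 4.16 and 2.46 in *arp6-1* and 9.71 and 9.13 in the double mutant. AT4G28670 differed from these. It had a summit in 1 of 2 lists of *mbd9-3*, scored 3.9, and in both of wild type, scored 5.42 and 7.36, and its loss in the double mutant was scored 10.5 and 9.92.

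*CRK23* and *CRK14* were the only members with a common summit in *arp6-1*, and *CRK23* the only one in the double mutant. *CRK23* had best scores of 11.8 and 19.3 for *mbd9-3*, 7.04 and 10.6 for *arp6-1*, 7.10 and 3.69 for the double mutant, and 11.6 and 10.3 for wild type. It was also called lost in both *arp6-1*, with scores of 5.33 and 2.90, and the double mutant, with scores of 5.69 and 2.60. In *arp6-1* the loss overlapped its wild-type region at 1249 bp from the TSS, and a common region remained at that at 614 bp. In the double mutant loss overlapped both wild-type regions, and a common region remained at that at 614 bp. *CRK14* and *CRK23* both lie in the cluster *CRK5* to *CRK24*.

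*CRK14* held the most summits over H3 of any member, with 7 and 5 for *mbd9-3*, 2 and 6 for *arp6-1*, 2 and 0 for the double mutant, and 4 and 3 for wild type. None of the 8 loss lists held a summit in it. Its 3 common wild-type regions lay at 207, 604 and 2643 bp from the TSS, the last of them in coding exon 7 near the 3′ end. *CRK11* likewise had no summit in any loss list, and had 1 and 1 summits in the double mutant, scored 2.21 and 3.84, which lay too far apart to form a common region. *CRK18* and *CRK26* each had a summit in 1 list of *arp6-1* and 1 list of the double mutant.

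Losses in *mbd9-3* were called in 2 members, with a loss summit in 5 and 4 members in the single lists. *CRK36*, which encodes a kinase known to bind the flagellin receptor *FLS2*, had loss scores of 2.57 and 3.23 for *mbd9-3*, 5.54 and 5.14 for *arp6-1*, and 6.73 and 4.41 for the double mutant. Its region of loss in *mbd9-3* lay beside its common wild-type region and did not overlap it. No mutant list over H3 held a summit in it, and its wild-type scores were 5.54 and 4.14. Its neighbours *CRK37* and *CRK38* had no summit over H3 in any mutant list either, with 1 and 2 summits in wild type for *CRK37* and 4 and 2 for *CRK38*. In *mbd9-3* each had a loss summit in the second list only, scored 5.16 in *CRK37* and 4.28 in *CRK38*. All 3 were called lost in *arp6-1* and in the double mutant. They were 3 of the 6 CRK genes with a common wild-type summit and no common summit in *mbd9-3*, the others being *CRK13*, *CRK24* and AT4G28670. The cluster was singled out after its values were seen.

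*CRK5*, whose overexpression is known to cause cell death, had loss scores of 3.35 and 4.16 in *mbd9-3*. It was not called lost in *arp6-1* or the double mutant, where only 1 list, of *arp6-1*, held a loss summit, scored 2.85. *CRK5* had a common summit in *mbd9-3*, with best scores in the gene of 3.48 and 6.05 in *mbd9-3* and 3.81 and 5.77 in wild type. Its region of loss in *mbd9-3* overlapped its common wild-type region, which lay at the 3′ end in coding exon 7. No common *mbd9-3* region centred within 200 bp of that wild-type region, so the common summit in *mbd9-3* lay elsewhere in the gene. With summits joined up to 100 bp apart, neither *CRK36* nor *CRK5* was called lost in *mbd9-3*.

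A common summit was found in 18 of 27 clustered members in *mbd9-3* and 22 in wild type, and in 8 of 10 single members in *mbd9-3* and 9 in wild type. Loss in *arp6-1* was called in 14 of 27 clustered and 6 of 10 single members, and in the double mutant in 13 and 6. All 5 members of *CRK30* to *CRK34* had a common summit in *mbd9-3* and in wild type, and 3 of them, *CRK31*, *CRK32* and *CRK33*, were lost in both *arp6-1* and the double mutant. *CRK34* had no summit in any loss list, and *CRK30* had one in a single list of *arp6-1*, scored 3.24. In the cluster *CRK5* to *CRK24*, 13 of 19 members had a common summit in *mbd9-3* and 14 in wild type, 8 were lost in *arp6-1* and 7 in the double mutant.

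In 5 members neither wild-type list held a summit. These were AT4G20645, *CRK28*, *CRK12*, *CRK16* and *CRK22*. *CRK28* lies beside *CRK29*, with 81.1% identical residues, and *CRK29* had summits in both lists of *mbd9-3* and 1 of wild type. *CRK29*, *EMB1290* and *CRK18* had a summit in only 1 wild-type list and thus no common one. *CRK16* and *EMB1290* overlap, and each was counted with 1 summit scored 2.59 in the second list of *arp6-1*. The remaining members not named by value had common wild-type scores between 2.03 in *CRK34* and 8.83 in *CRK6*.

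Where in the genes H2A.Z lies was read from the 47 common wild-type regions in CRK genes. They centred at a median of 545 bp from the TSS, with a range of 192 to 2664 bp. By class, 22 lay within 500 bp after the TSS, 21 in the gene body and 4 within 500 bp before the TES. Coding exons held 46 of the 47 (97.9%), compared with 82.7% of 20140 regions in other genes, and the last lay in intron 1 of *CRK4*. Coding exon 1 alone held 37, exon 4 held 3, exon 5 held 2 and exon 7 held 4. No CRK region centred in a UTR, where 4.63% (5′) and 1.13% (3′) of the regions in other genes centred.

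In most members the first coding exon encodes the extracellular part. It made up a median of 41.3% of the coding length, and the last cysteine motif ended at a median of 32.2% of the protein. Of the 46 regions in coding exons, 36 centred up to the last cysteine motif and 10 after it. In *CRK2*, *CRK25* and *CRK31* the centres lay at codons 69, 100 and 77. By contrast, *CRK5* and *CRK13* had their only common region in exon 7, at codons 619 and 624. The windows of 201 bp around the regions had a median GC content of 46.8% (38.8 to 54.2), first coding exons 44.8% (40.4 to 50.9) and whole CRK genes 38.9% (35.6 to 40.7). Regions in other genes had a median of 45.3%.

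**Figure D5:**
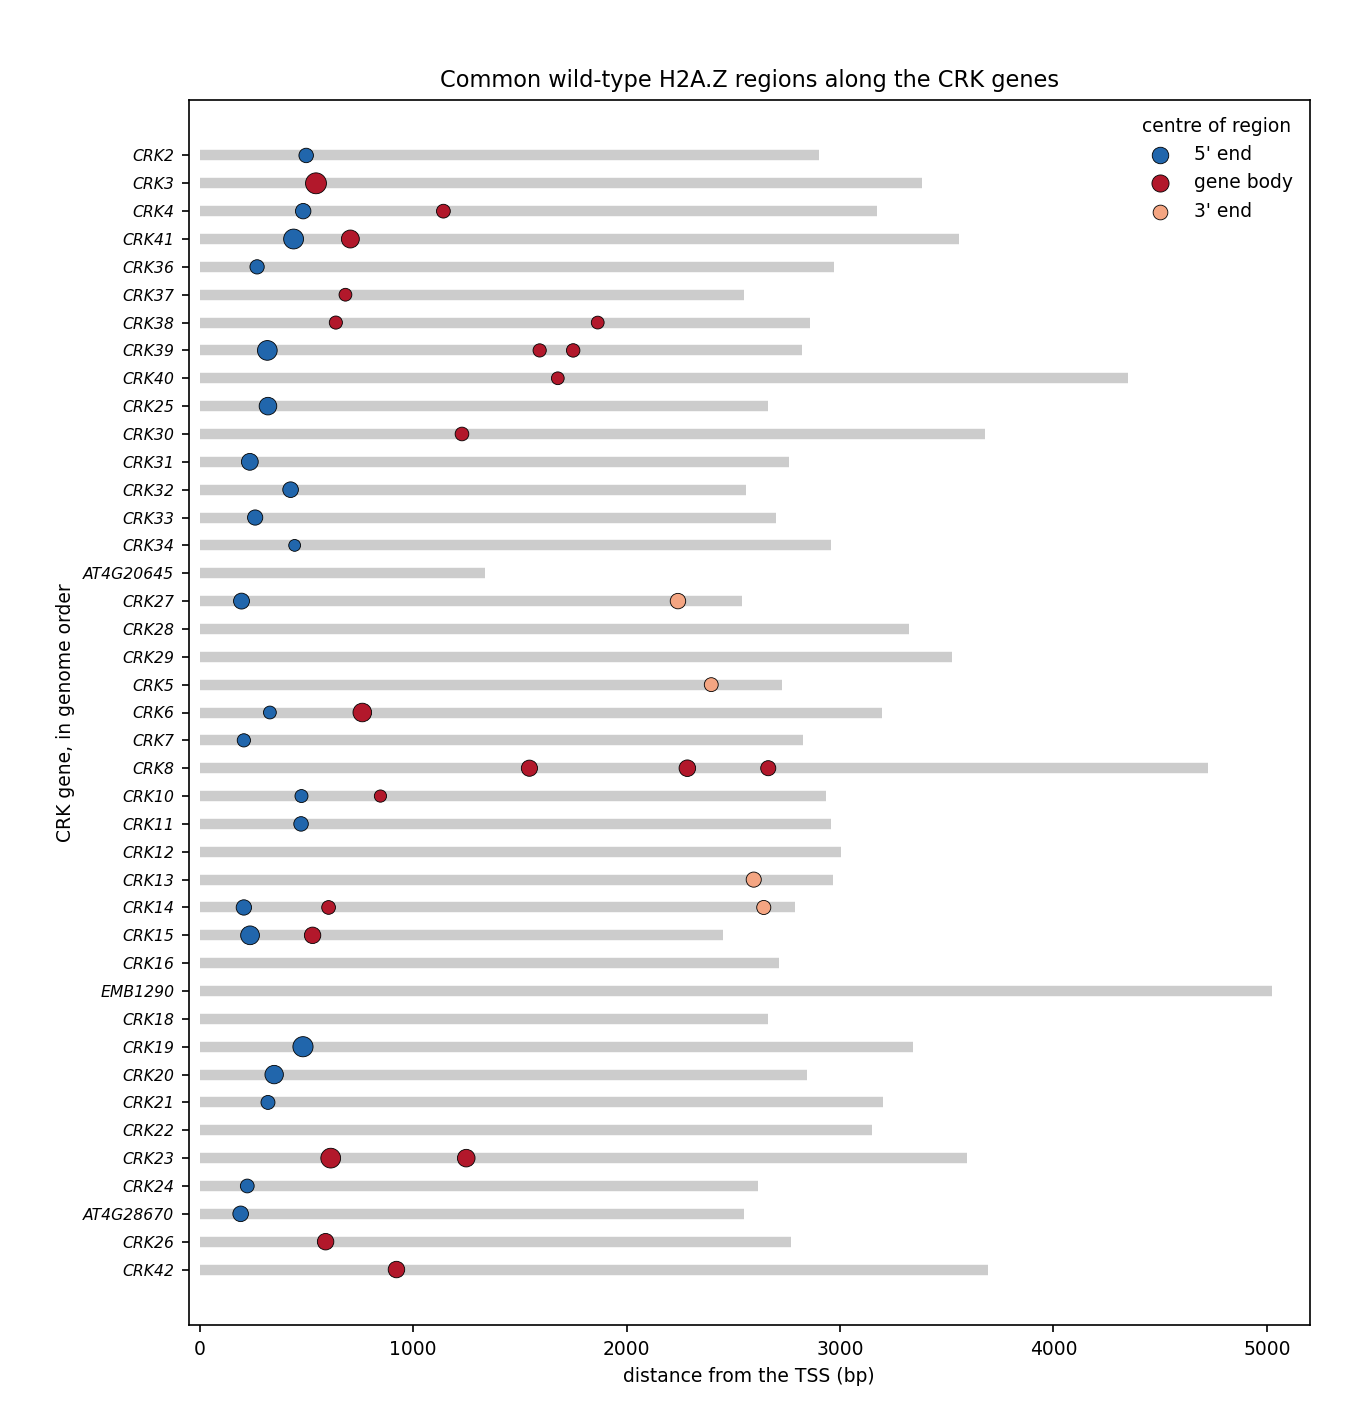
Centres of the 47 common wild-type regions along the CRK genes, as distance from the TSS in bp. Grey bars span each gene from TSS to TES, colours give the class of the region, and larger points have higher scores (lower of both replicates); 22 of the regions lay within 500 bp after the TSS.

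No common wild-type region was found in 8 members, 22 had 1, 8 had 2 and 3 had 3, so that 26.8% of members had at least 2 (14.2 to 42.9), compared with 15.7% of other genes, which are shorter, with a median of 2077 bp. Among genes of 2000 to 4000 bp, at least 2 regions were found in 27.0% of CRK genes (13.8 to 44.1) and 18.1% of other genes, and at least 3 in 5.41% (0.661 to 18.2) and 6.51%. In each case the share of other genes lay within the interval of the CRK genes. Of genes of at least 1500 bp, 16 of 40 CRK genes (40.0%) and 22.7% of other genes had a region in the gene body. The leucine-rich repeat kinases had comparable values, with 37.2% holding at least 2 regions and 43.7% a region in the gene body. Among genes of at least 1500 bp with a common wild-type summit, 48.5% of CRK genes and 43.5% of other genes had a gene-body region. Region by region, 30 of 47 CRK regions had a common *mbd9-3* region in place (63.8%, 48.5 to 77.3), compared with 47.4% of regions in other genes. In *arp6-1* there were 3 (6.38%) and in the double mutant there was 1 (2.13%), compared with 12.3% and 1.77%. A region of loss overlapped 24 in *arp6-1* (51.1%, 36.1 to 65.9) and 24 in the double mutant, against 55.9% and 71.0% of regions in other genes. In *mbd9-3* a loss overlapped 1 (2.13%, 0.0539 to 11.3), against 9.96%.

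Among related families, leucine-rich repeat kinases had a common summit in 44.3% of 183 genes in *mbd9-3* (36.9 to 51.8) and 67.2% in wild type (59.9 to 74.0). In lectin kinases these shares were 32.1% and 54.3% of 81 genes, and in DUF26 proteins without a kinase 27.8% and 57.4% of 54 genes. The interval of the CRK genes in *mbd9-3*, 54.5 to 83.9, did not overlap those of the 3 families, of which the highest bound was 51.8. These intervals cover counting error only, and neighbouring copies are not independent. The families were not matched for gene length, wild-type summits or scores, and no difference between families was tested. The median gene had 1336 bp in DUF26 proteins without a kinase and 2936 bp in CRKs. In wild type the interval of the CRK genes overlapped those of leucine-rich repeat kinases (59.9 to 74.0), lectin kinases (42.9 to 65.4) and DUF26 proteins (43.2 to 70.8). Loss in the double mutant was called in 68.9% of leucine-rich repeat kinases, 50.6% of lectin kinases and 44.4% of DUF26 proteins.

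Genes of the immune and reactive oxygen pathway in which CRKs act, 18 in all, had a common summit in 3 cases in *mbd9-3*, 1 in *arp6-1*, 0 in the double mutant and 10 in wild type. Loss was called in 3 in *mbd9-3*, 12 in *arp6-1* and 14 in the double mutant. As shares these were 16.7% (3.58 to 41.4) with a common summit in *mbd9-3* and 55.6% (30.8 to 78.5) in wild type, and losses in 66.7% (41.0 to 86.7) for *arp6-1* and 77.8% (52.4 to 93.6) for the double mutant. The shares of other genes given above, 29.5%, 50.8%, 42.8% and 53.7%, lay within these intervals, as did those for the remaining 3 counts. *FLS2*, the flagellin receptor, had 0 common regions in *mbd9-3*, *arp6-1* and the double mutant and 2 in wild type, and was lost in *arp6-1* and the double mutant. *BIK1*, a cytoplasmic kinase downstream of immune receptors, had 0 in the mutants and 1 in wild type, and was lost in the same mutants. *RBOHD*, which makes extracellular superoxide, had 0 common regions in the mutants and 1 in wild type, and no common region of loss. *WRKY33*, a transcription factor, had 1 common region in *mbd9-3*, 0 in *arp6-1* and the double mutant, and 1 in wild type, with a common region of loss in the double mutant and none in *mbd9-3* or *arp6-1*.

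The promoters of the CRK genes were read from 250 bp before to 50 bp after the TSS. The letters TTGAC, the core of the W box bound by WRKY transcription factors, were found on either strand in 32 of 41 CRK promoters (78.0%) and 50.5% of other promoters. At least 2 were found in 16 CRK promoters (39.0%) and 17.7% of others. A match is a run of letters and not a measured site. The H2A.Z regions counted in CRK genes centred downstream of these windows, at least 192 bp after the TSS. Regions wholly before the TSS were left out by definition, since only those overlapping a gene between TSS and TES were counted.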

How the data were processed

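The authors mapped reads to TAIR10 with Bowtie, discarded reads with more than 1 position and, with SAMtools, duplicates, and ran MACS2 (2.1.1) on each replicate with q below 0.01 and fragments set to 200 bp. The deposited lists hold 1 line per summit, whose score is the −log10 of its q value. They hold no read counts, so the depth is unknown. No scaling of H2A.Z libraries between genotypes is given in the sources used here. The authors set H2A.Z against H3 in 8 lists, and one genotype against another within a replicate number in 8.

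Each summit was widened by 100 bp to either side. Where summits of both replicates then overlapped, the overlap was taken as a common region, and its score is that of the replicate with the lower best score. A summit that overlapped several summits of the other replicate could thus give several common regions. A gene was counted where at least 1 bp overlapped. Scores of different lists were not compared by a test. Genes came from TAIR10.1, and 0 summits lay outside its chromosomes. Intervals are exact Clopper-Pearson intervals (SciPy 1.17.1), and library values were compared by exact permutation with Benjamini-Hochberg adjustment. Python 3.11.15, NumPy 2.4.6, Biopython 1.88 and Matplotlib 3.10.9 were used, and the calling of common regions was tested on simulated data. Nothing in the labels says more of the replicates than that they are separate samples on separate plates, so p values measure the spread between these samples only. Members named with values were those with the 6 highest wild-type scores, the 3 highest numbers of regions, the 6 highest losses in *arp6-1* and in the double mutant, any loss in *mbd9-3*, any common summit in *arp6-1* or the double mutant, and no wild-type summit. Others named were chosen after their values were seen. The members, lists and tests were chosen with earlier results of these data known. Alternatives were other joining distances, score limits, gene extents and single replicates. H3 signal, MBD9 ChIP-seq, ATAC-seq and RNA-seq were not analysed here, and whether the labels of the mutants fit MBD9 and ARP6 levels was not checked.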

Additional observations from a re-analysis of the deposited data

How the results depend on the processing

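The largest moves came with a limit on the score. With scores of at least 5, CRK genes with a common summit numbered 15 in *mbd9-3*, 1 in *arp6-1*, 0 in the double mutant and 19 in wild type, compared with 19.1%, 4.26%, 0.215% and 33.0% of other genes. In CRK genes these were 36.6%, 2.44%, 0% and 46.3%. Losses at that limit were called in 0 (*mbd9-3*), 7 (17.1%, *arp6-1*) and 11 (26.8%, double mutant), compared with 2.89%, 22.8% and 38.1% of other genes. A gene-body summit was found in 8 of 40 CRK genes of at least 1500 bp, compared with 12.1% of such other genes. The median was 0 regions per CRK gene. With scores of at least 10 there were 2 (4.88%), 0, 0 and 5 (12.2%) with a common summit, compared with 8.05%, 0.938%, 0.0182% and 9.17% of other genes. Losses were then called in 0, 0 and 1 (2.44%), compared with 0.190%, 2.93% and 12.8%. A gene-body summit was found in 2 CRK genes, compared with 2.65% of other genes of at least 1500 bp, and the median was 0 regions. At that limit the ratio of regions in *mbd9-3* to wild type was 0.400 in CRK genes and 0.890 in other genes, below that of other genes, while at 5 it was 0.875 and 0.566. With 1 replicate alone it was 0.871 and 1.08 in CRK genes, and 0.514 and 0.687 in other genes. That ratio and its alternatives were chosen after seeing the data. Joined up to 500 bp apart, 2 CRK genes (4.88%) had a common summit in the double mutant, compared with 1.38% of other genes. Joined up to 100 bp apart, 0 were lost in *mbd9-3*, compared with 8.15% of other genes. Windows of 300 bp put 26 of 40 CRK genes in the gene-body class, compared with 40.5% of other genes of at least 1500 bp. With replicate 1 alone, 5 CRK genes (12.2%) had a summit in *arp6-1* and 5 (12.2%) in the double mutant, compared with 10.8% and 3.57% of other genes. With replicate 2 alone there were 12 (29.3%) and 3 (7.32%), compared with 18.9% and 3.70%. In *arp6-1* either list alone thus put CRK genes above other genes, whereas common summits put them below (4.88% and 8.66%). Losses in *mbd9-3* were called in 5 (12.2%) and 4 (9.76%), compared with 22.8% and 15.1%. The difference in genes with a summit per library was -17.5 at a score of 5 and -6.33 at 10 (exact permutation p = 0.0357, the smallest possible, and adjusted p = 0.0714 at both), and the difference per 1000 summits was -1.11 (exact permutation p = 0.286) at 10 and thus reversed. When other genes were limited to those with a wild-type region, a common summit was present in 55.7% (*mbd9-3*), 16.9% (*arp6-1*) and 2.45% (double mutant). Losses were called in 14.4%, 69.0% and 84.6%, and further loss in 5.55%. In CRK genes with a wild-type region these were 81.8%, 6.06% and 3.03%, with losses in 6.06%, 66.7% and 63.6% and further loss in 0%. The cause of these moves was not tested, beyond that higher limits leave fewer summits. In all, 70 values under alternatives counted as the same as the main value, 35 as moved, 0 as newly passing the threshold and 1 as reversed. These labels compare a value with its own main value and not with other genes. A change from 22 to 32 CRK genes lost in *arp6-1* counted as the same. Changes of direction against other genes, such as those in *mbd9-3* with scores of at least 10, counted as moved. Differences below the q value limit of the authors were not detectable. With the replicate number as a block, that is, with the wild-type label exchanged only within a number (16 assignments, smallest p 0.0625, so that the threshold cannot be reached), the differences of -20.3 and 1.12 had exact permutation p = 0.188 and 0.375 (adjusted p = 0.375 for both). Samples with the same number share only that number in the labels, and this block was added after seeing the data. Calls per gene come from no test of samples and have no blocked value.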
